A study of Mus musculus with 6 samples.

Results

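The C1q/TNF-related genes encode secreted proteins that share their domain layout with adiponectin. The genes C1qtnf1, C1qtnf2, C1qtnf3, C1qtnf4, C1qtnf5, C1qtnf6, C1qtnf7 and C1qtnf12 were followed here in mouse adipocytes that carried miR-182-5p mimic or a mimic control. These 8 genes were taken by symbol from the 22609 genes counted in each sample, and they are called the family here. Of the 8, 7 are listed under their own symbol, and C1qtnf12 is listed under its older symbol Fam132a, which RefSeq gives as a synonym. The family was chosen by the counts of these same samples, because C1qtnf3 had the largest rise with the mimic among the secreted genes that the study displayed. Its difference between mimic and control, and the same difference for the other members, is therefore described below with no test.

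The cells came from the stromal cells of inguinal fat of male C57BL6 mice aged 3 weeks by the labels, were differentiated in culture, and formed 2 groups of 3 samples. All 6 samples shared strain, sex, age and culture, and the control group had received a control vector by its label and a mimic control by the study's text. The labels name electroporation where the methods name a lipid reagent, the methods give another age, and they print for the mature miRNA a sequence that is not the RefSeq entry for miR-182-5p. Neither source says whether the samples of a group came from separate cell preparations, so the spread between samples may be technical. Reads counted on genes lay between 25869810 and 28796712 per sample, and no 2 samples of a group were copies of one library, since replicate counts differed by a chi-square of 2.13 to 7.18 per degree of freedom.

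A C1q/TNF-related protein has a signal for secretion, a collagen-like tail and a globular C1q domain at its end, whose fold resembles that of tumor necrosis factor. The chains assemble into trimers and larger complexes in the secretory pathway, and several are cleaved on the way out. In fat tissue, members of the family are made by adipocytes and by the stromal cells around them, and they act on glucose and lipid metabolism, vessels and inflammation. C1qtnf3 encodes CTRP3, also called cartducin, which adipocytes and growing cartilage release. C1qtnf12 encodes adipolin, an insulin-sensitizing adipokine, and C1qtnf4 encodes a member with a pair of C1q domains and no collagen tail. C1qtnf5 encodes a short member known from the retinal pigment epithelium.

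A miRNA pairs through its bases 2 to 8, the seed, with matches in a transcript. In the RefSeq table, mature miR-182-5p lies on chromosome 6 of GRCm38.p6 from 30165962 to 30165986 on the minus strand. It is shown with the match windows of the family because it is the agent that the samples received, with its seed in capitals, and in the windows the capitals mark the bases that match.
miR-182-5p: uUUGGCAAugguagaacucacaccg
C1qtnf7, 3′-UTR: gcactaagcaTGCCAAAgtacaagtg
C1qtnf7, coding sequence: ggacctttgaTGCCAAcacagggaac
C1qtnf2, coding sequence: ggacttttgaTGCCAAcacgggcaac
The search covered the transcript strand of every coding transcript of the 8 genes in GENCODE M21, for the full seed match TTGCCAA and for TGCCAAA, which drops the base opposite position 8 and adds an A. Both contain TGCCAA. The full match TTGCCAA occurred in 0 of the 8 members in any region. TGCCAAA occurred in the 3′-UTR of 1 member, C1qtnf7, in exon 3 of 3 of the transcript with its longest 3′-UTR, on the plus strand at chr5:43617298-43617304 of GRCm38. The other C1qtnf7 transcript with an annotated 3′-UTR, of 335 bases, held no match there. Among the 12507 genes tested for expression that have a 3′-UTR in the annotation, 13.9% held TTGCCAA and 15.6% held TGCCAAA in the longest one. The longest 3′-UTR of C1qtnf7 has 2552 bases, and TGCCAAA occurred in 23.6% of the 2202 genes whose 3′-UTR was 0.8 to 1.25 times as long. In 3 further members, C1qtnf1, C1qtnf4 and C1qtnf6, the 3′-UTR held TGCCAA without a longer match. Counted within longer matches too, TGCCAA occurred in the 3′-UTR of 4 of the 8 members and of 37.8% of the 12507 genes. It also occurred in the coding sequence of C1qtnf2, C1qtnf5 and C1qtnf7. The windows in C1qtnf2 (chr11:43491151-43491156) and C1qtnf7 (chr5:43616047-43616052) were identical at 23 of 26 bases. C1qtnf3 and C1qtnf12 held none of these letters in any region. These matches describe the sequences and do not show binding.

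Levels are given as read counts per 1000000 reads of the scaled library (CPM) and, where genes are compared with each other, also per kilobase of exon (RPKM). In control adipocytes 3 of the 7 members with reads had a high level and 4 a low one. C1qtnf6, which encodes CTRP6, an inhibitor of the alternative complement pathway, had the highest level at 41.2 ± 1.85 RPKM (SD, n = 3). C1qtnf12 followed at 30.7 ± 1.48 RPKM (SD, n = 3), and C1qtnf1, a member with actions on platelets and vessels, at 16.0 ± 0.491 RPKM (SD, n = 3). In the order of all 12961 genes tested whose exon length was known, C1qtnf6 stood at rank 1014, C1qtnf12 at 1461 and C1qtnf1 at 2878. The next gene, C1qtnf3, stood at rank 10515 with 1.08 ± 0.159 RPKM (SD, n = 3), and the mean of C1qtnf1 was 14.9 times as high. C1qtnf2 had 0.946 ± 0.131 RPKM, C1qtnf7 had 0.724 ± 0.0963 RPKM and C1qtnf4 had 0.240 ± 0.0558 RPKM (SD, n = 3 each). Of the 6 pairs of neighbours among these 7 genes, C1qtnf3 and C1qtnf2 had overlapping ranges over the control samples, and the ranges of the 5 other pairs lay apart.

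**Figure D1:**
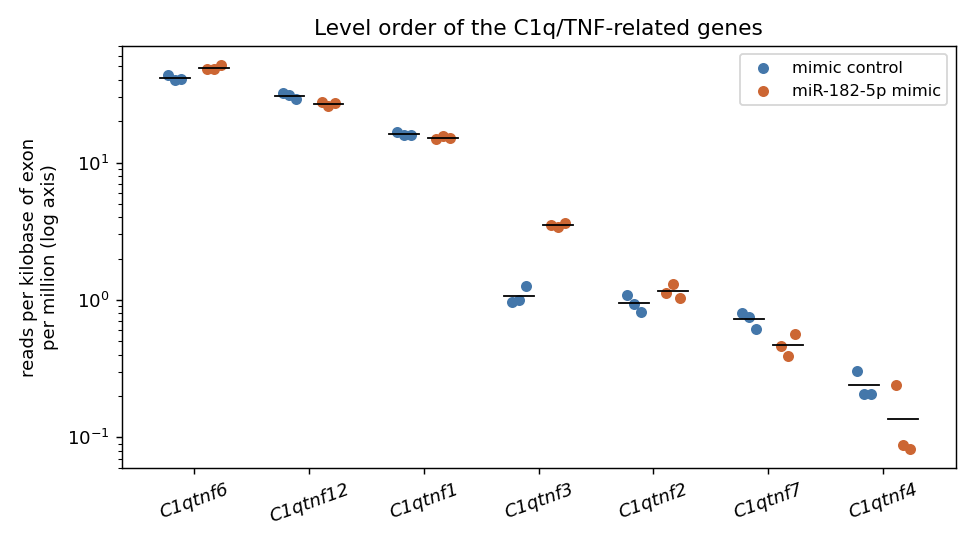
Level in RPKM on a log axis for 7 of the 8 genes, C1qtnf5 at 0 being left out; each point is 1 sample, blue for mimic control and orange for miR-182-5p mimic, and the black line is the group mean. C1qtnf6, C1qtnf12 and C1qtnf1 lie above 14 RPKM in all samples, and C1qtnf3 moves from about the level of C1qtnf2 in control samples to 3.52 RPKM with the mimic.

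C1qtnf5 had 0 reads in every sample. A count of 0 allows up to 3 reads, which is 0.104 to 0.116 CPM of the unscaled library totals. All 1589 exon bases of C1qtnf5 (chr9:44107245-44109187 of GRCm38, plus strand) are also exon bases of Mfrp on the same strand, which had 0 reads as well. Reads that fit more than 1 gene were set aside in the deposited lists as ambiguous, so the level of C1qtnf5 cannot be read from these counts.

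The gene C1qtnf3 occupies bases 10952332 to 10980150 of chromosome 15 (GRCm38, plus strand), with 2 annotated transcripts and no exon base shared with another gene. Its read counts were 63, 67 and 84 in the control samples, in the order of replicates 1 to 3, and 263, 229 and 262 in the mimic samples. As CPM these were 2.47, 2.57 and 3.22 with control and 9.01, 8.69 and 9.28 with the mimic. The lowest mimic sample was well above the highest control sample, and the mimic samples were close to each other. The log2 fold change was 1.71 (standard error 0.11, edgeR), a level 3.26 times as high with the mimic. By log2 fold change C1qtnf3 ranked at 5 of 13117 genes tested, and 4 of the 258 genes called higher had a larger one. Leaving out 1 sample at a time moved its log2 fold change between 1.64 and 1.83. Its neighbour Amacr, which encodes a racemase of branched-chain fatty acids, starts 1605 bases beyond its end on the same strand and had 375 to 383 reads with control and 394 to 425 with the mimic. Amacr differed by 0.02 on the log2 scale (standard error 0.060, edgeR adjusted p = 0.795). The 14 direct neighbours of members that were tested had log2 fold changes from -0.58 (Rai14, on the other side of C1qtnf3) to 0.41 (Mcam, beside C1qtnf5).

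C1qtnf7 moved the other way. It lies on chromosome 5 from 43515538 to 43618803, on the plus strand. Its reads numbered 85, 82 and 67 with control and 56, 43 and 66 with the mimic, which is 3.34, 3.14 and 2.57 CPM against 1.92, 1.63 and 2.34 CPM. Every mimic sample was below every control sample, and mimic replicate 3 came close to control replicate 3. The log2 fold change was -0.61 (standard error 0.17). That is near the 1.5-fold line at 0.585 on the log2 scale. It fell short of the line without control replicate 1 (-0.54), without control replicate 2 (-0.583) and without mimic replicate 2 (-0.50).

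C1qtnf6, on chromosome 15 from 78523346 to 78531416 on the minus strand, had 117, 108 and 109 CPM with control and 130, 129.7 and 138 CPM with the mimic. The groups did not overlap, and the log2 fold change was 0.25 (standard error 0.037). Per exon length this was the largest gain of the family, from 41.2 ± 1.85 to 49.1 ± 1.75 RPKM (SD, n = 3 each), while C1qtnf3 went from 1.08 to 3.52 ± 0.115 RPKM (SD, n = 3). Of the 2702 exon bases of C1qtnf6, 117 are shared with an antisense gene that is not among the counted genes.

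C1qtnf12, on chromosome 4 from 155962318 to 155966629 on the plus strand, had 43.6, 42.7 and 39.7 CPM with control and 37.6, 35.3 and 37.0 CPM with the mimic. The mimic samples were all lower, by a log2 fold change of -0.20 (standard error 0.050). C1qtnf1, on chromosome 11 from 118428203 to 118449963 on the plus strand, had 52.0, 49.4 and 49.3 CPM with control and 46.2, 48.5 and 46.9 CPM with the mimic. Its groups lay apart by less than 1 CPM, and the log2 fold change was -0.09 (standard error 0.043). An antisense gene that is not among the counted genes covers 642 of the 3131 exon bases of C1qtnf1. Whether counting used the strand is not given in the sources used here.

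C1qtnf2, on chromosome 11 from 43474276 to 43491525 on the plus strand, had 36, 32 and 28 reads with control and 43, 45 and 38 with the mimic, or 1.41, 1.23 and 1.07 CPM against 1.47, 1.71 and 1.35 CPM. These groups overlapped, and the fitted difference was 0.28 on the log2 scale (standard error 0.20). C1qtnf4, on chromosome 2 from 90885860 to 90890525 on the plus strand, had 10, 7 and 7 reads with control and 9, 3 and 3 with the mimic. It was under the filter on low counts, so its difference was not tested in the fit reported.

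**Figure D2:**
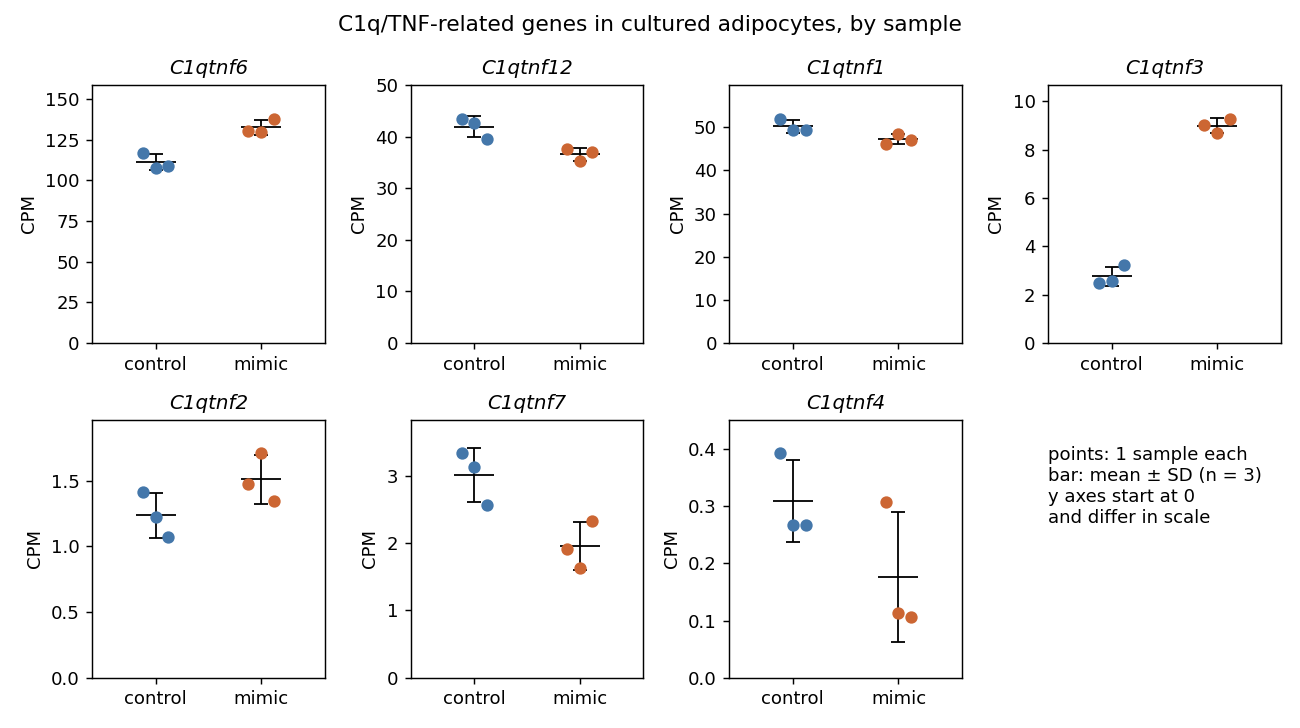
CPM of 7 of the 8 genes in each sample, control on the left and mimic on the right of each panel, with the mean ± SD (n = 3) in black; the vertical axes start at 0 and differ in scale. C1qtnf3 has 2.47 to 3.22 CPM with control and 8.69 to 9.28 CPM with the mimic, the widest gap relative to its own level among the panels, whereas the groups of C1qtnf2 and of C1qtnf4 overlap.

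Genes were called at the cutoffs the study states, a fold of 1.5 or more with an adjusted p under 0.05, in the edgeR fit over 13117 genes. Of the 8 members, 6 had enough reads to be fitted. Of these, 2 were called, beside 7.45% of all genes tested. They were 1 higher, C1qtnf3, beside 1.97% of all genes tested, and 1 lower, C1qtnf7, beside 5.48%. Nothing is read from these counts because the contrast chose the family. The samples of the groups did not overlap for 5 of the 6 members, beside 54.8% of all genes tested, and they were 2 higher (27.3% of all genes) and 3 lower (27.5%). The median log2 fold change of the 6 members was 0.08, and that of all genes tested was -0.00.

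The mix within the family differed between the groups, whereas its sum overlapped. The summed level of the 8 members was 88.0 to 95.0 RPKM in control samples and 94.5 to 98.5 RPKM in mimic samples, which overlap. C1qtnf3 made up 1.02% to 1.43% of that sum with control and 3.60% to 3.68% with the mimic. The share of C1qtnf6 went from 44.4% to 45.8% with control to between 50.3% and 51.9% with the mimic. C1qtnf12 held 33.0% to 34.8% with control and 27.3% to 28.7% with the mimic. In RPKM, C1qtnf6 was 44.7, 39.8 and 32.0 times C1qtnf3 in control replicates 1 to 3 and 13.7, 14.1 and 14.1 times in the mimic replicates. The order of the means was the same in both groups, and with the mimic the ranges of C1qtnf3 and C1qtnf2 lay apart.

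Other genes with a C1q domain encode proteins that share the globular fold. Of 23 such genes, 11 passed the filter on low counts and 7 had 0 reads in every sample. C1qtnf9 and Erfe, on this list, are also counted as C1q/TNF-related genes but were not among the genes followed. C1qtnf9 had 0 reads, and Erfe had a log2 fold change of -0.23 (edgeR adjusted p = 0.491). Both were named after their values were seen. Among the tested genes 1 was called higher, beside 1.97% of all genes tested, and 1 lower, beside 5.48% (7.45% in either direction). Their median log2 fold change was 0.15. Emilin2, which encodes a glycoprotein of elastic fibers, fell from 343 ± 4.44 to 221 ± 7.33 CPM (SD, n = 3 each), which is -0.63 on the log2 scale (standard error 0.030, edgeR adjusted p = 9.92e-10). Col10a1, a collagen of growing cartilage, rose from 4 to 11 reads with control to 15 to 20 with the mimic, a log2 fold change of 1.06 (standard error 0.37, edgeR adjusted p = 0.0299). Col10a1 lost its call with DESeq2 and without control replicate 2 (0.77), control replicate 3 (1.03), mimic replicate 2 (1.10) or mimic replicate 3 (0.92). By the adjusted p alone, 4 of the 11 were higher, beside 23.2% of all genes tested, and 3 lower, beside 23.5% (46.7% in either direction). The 4 were Col10a1, the short-chain collagens Col8a1 (log2 fold change 0.50) and Col8a2 (0.48), and Emilin1 (0.15), and the 3 were Adipoq, Emilin2 and Caprin2 (-0.22), of which Col8a1, Col8a2 and Caprin2 were named after their values were seen. Adipoq, which encodes adiponectin, went from 928 ± 20.6 to 675 ± 56.0 CPM (SD, n = 3 each), or -0.46 on the log2 scale (standard error 0.047, edgeR adjusted p = 2.39e-06).

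**Figure D3:**
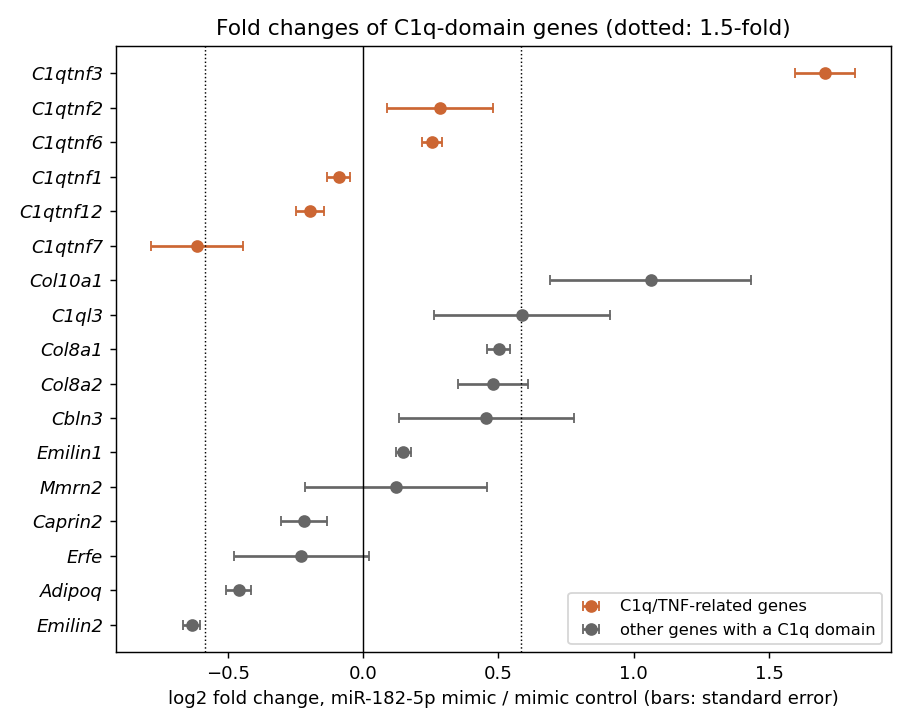
Log2 fold change of mimic over control, with its standard error, for the 6 C1q/TNF-related genes followed and fitted (orange) and 11 other genes with a C1q domain (grey). The grey genes include Erfe, and dotted lines mark 1.5-fold. C1qtnf3 lies at 1.71, to the right of all others plotted, and C1qtnf7, Adipoq and Emilin2 lie at -0.61, -0.46 and -0.63.

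The next list holds genes of proteins that bind, or are reported to bind, adiponectin and its relatives. Of 10 such genes 7 were tested, and 0 were called by edgeR, by DESeq2 or by limma-voom. An unadjusted p under 0.05 was reached by 4 of the 7. Over all genes tested it was reached by at least 46.7%, the share that passed the adjusted p. By the adjusted p alone 1 was higher, beside 23.2% of all genes tested, and 2 were lower, beside 23.5%. The gene of adiponectin receptor 1, Adipor1, rose by 0.19 on the log2 scale (standard error 0.028, edgeR adjusted p = 5.3e-05), from 179.6 ± 0.789 to 205.5 ± 4.43 CPM (SD, n = 3 each). Adipor2, the gene of its partner receptor, fell from 614 ± 10.6 to 531 ± 27.0 CPM (SD, n = 3 each), or -0.21 on the log2 scale (standard error 0.035, edgeR adjusted p = 0.000246). Scarb2, a lysosomal membrane protein reported to bind CTRP3, had a log2 fold change of -0.17 (edgeR adjusted p = 0.00115). Adipor1 and Scarb2 were named after their values were seen. Lamp1, the other lysosomal protein reported to bind CTRP3, had 1061 ± 22.4 CPM with control and 1011 ± 11.3 with the mimic (SD, n = 3 each, edgeR adjusted p = 0.0599). Calr, a chaperone of the endoplasmic reticulum that also reaches the cell surface, had a log2 fold change of 0.01 (edgeR adjusted p = 0.871). The median log2 fold change of the 7 genes was 0.01.

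The collagen-like tail is hydroxylated and glycosylated before the trimers form. Of 18 genes of tail modification, assembly and cleavage, 17 were tested and 0 were called by edgeR, by DESeq2 or by limma-voom. An unadjusted p under 0.05 was reached by 15 of the 17. Over all genes tested it was reached by at least 46.7%, the share that passed the adjusted p. By the adjusted p alone 8 were higher, beside 23.2% of all genes tested, and 5 lower, beside 23.5%. The median log2 fold change of the 17 was 0.09. P4ha1, a catalytic subunit of prolyl 4-hydroxylase, had a log2 fold change of 0.28 (edgeR adjusted p = 4.84e-06). P4hb, its other subunit and a disulfide isomerase, had 0.12 (edgeR adjusted p = 0.00751). The largest rise of the list was that of P4ha2, another catalytic subunit (0.47, edgeR adjusted p = 3.34e-08). The remaining higher genes were Colgalt1 (0.16), Pcsk7 (0.15), P4ha3 (0.12), Furin (0.10) and Plod1 (0.08). The collagen chaperone gene Serpinh1 had a log2 fold change of -0.00 (standard error 0.033, edgeR adjusted p = 0.984). The 5 lower genes were Plod2 (-0.41), Pcsk5 (-0.34), Plod3 (-0.30), Pcsk6 (-0.29) and Ero1a (-0.14). These 5, and the higher genes other than P4ha1 and P4hb, were named after their values were seen.

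AMP-activated kinase is a pathway on which several of these proteins act in other tissues. Of its 9 subunit and upstream kinase genes 9 were tested, and 0 were called by edgeR, by DESeq2 or by limma-voom. An unadjusted p under 0.05 was reached by 6 of the 9. Over all genes tested it was reached by at least 46.7%, the share that passed the adjusted p. By the adjusted p alone 2 were higher, beside 23.2% of all genes tested, and 3 lower, beside 23.5%. The median log2 fold change of the 9 was -0.04. The 2 were Prkaa2 (log2 fold change 0.50, edgeR adjusted p = 6.72e-05) and Prkab2 (0.41, edgeR adjusted p = 6.17e-07), which encode a catalytic and a scaffold subunit. The 3 were the catalytic subunit Prkaa1 (-0.20), the regulatory subunit Prkag1 (-0.17) and the upstream kinase Camkk2 (-0.29). Of these 5, Prkab2, Prkaa2 and Camkk2 were named after their values were seen. Stk11, the main upstream kinase, had a log2 fold change of 0.06 (edgeR adjusted p = 0.171).

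Over the 6 samples, 131 genes outside the family had a Pearson r above 0.99 with C1qtnf3 on the log2 CPM scale, since the 2 groups set most of the pattern. The highest r values were those of Rod1 (0.999), Ttc39b (0.999), Med21 (0.998), Kctd10 (0.998) and Snx13 (0.998), with log2 fold changes of 0.21, 0.54, 0.28, 0.42 and 0.26. Within the family r with C1qtnf3 was 0.92 for C1qtnf6, 0.60 for C1qtnf2, -0.85 for C1qtnf1, -0.88 for C1qtnf7 and -0.93 for C1qtnf12. These are descriptions over 6 samples in 2 groups.

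Cell type markers were read beside these values. Of all genes tested, 1.97% were called higher and 5.48% lower. All 10 adipocyte markers were tested, with a summed level of 14012 to 14819 CPM in control and 9851 to 11067 CPM in mimic samples. Of these, Fabp4 and Pnpla2 were called lower. By the adjusted p alone 7 were lower and 1, Lep, was higher (log2 fold change 0.37). The shares of all genes tested were 23.5% lower and 23.2% higher. Of 9 markers of stromal progenitors tested, 0 were called higher and 5 lower, among them Pdgfra (log2 fold change -0.86) and Cd34 (-1.53). By the adjusted p alone 6 were lower and 1, Thy1, was higher (0.19). Pdgfrb (0.06) and Col1a1 (-0.05) did not pass. Lep, Thy1 and Pdgfrb were named after their values were seen. The summed progenitor level was 21723 to 22835 CPM with control and 20557 to 21413 CPM with the mimic. Fewer cells of a type and less RNA per cell cannot be told apart in such samples. Of 8 macrophage markers 4 were tested and 1, Lyz2, was called lower. Their summed level was 14.5 to 15.6 CPM with control and 12.4 to 15.8 with the mimic, Ptprc had at most 4 reads in a sample, and the macrophage genes C1qa, C1qb and C1qc had 3 to 12. Of 5 endothelial markers 3 were tested and 1, Tek, was called lower, from 6.05 ± 0.608 to 2.43 ± 0.247 CPM (SD, n = 3 each). The summed endothelial level was 7.78 to 9.15 CPM with control and 4.97 to 5.49 with the mimic, Kdr had 1.59 ± 0.426 and 2.14 ± 0.201 CPM (SD, n = 3 each), and Cldn5 was at 0. Of 7 genes of cartilage and bone 4 were tested and 1, Sp7, was called higher, at a summed 74.2 to 77.0 CPM with control and 83.7 to 86.9 with the mimic. Of the other tested genes of that list, Sox9 had a log2 fold change of -0.40 (edgeR adjusted p = 0.000122), Runx2 0.34 (edgeR adjusted p = 1.49e-05) and Comp -0.06 (edgeR adjusted p = 0.579), and the defining cartilage genes Acan and Col2a1 had at most 1 and 4 reads. Of 4 smooth muscle genes 3 were higher by the adjusted p alone, beside 23.2% of all genes tested, at a summed 3446 to 3619 CPM with control and 4123 to 4490 with the mimic. Of 4 skeletal muscle genes 3 were at 0, and Acta1 was called higher, from 18.4 ± 0.223 to 30.5 ± 2.19 CPM (SD, n = 3 each). The summed level of the macrophage list overlapped between the groups. Those of the adipocyte, progenitor, endothelial, smooth muscle, skeletal muscle and cartilage and bone lists did not. Among single genes tested, 54.8% did not overlap either. Most of the progenitor sum was Col1a1, at 19248 ± 610 CPM with control and 18643 ± 386 CPM with the mimic (SD, n = 3 each). Its edgeR adjusted p was 0.378. The skeletal muscle sum was Acta1 alone. In the endothelial list Tek fell, Cdh5 went from 0.554 to 0.503 CPM, and Kdr and Pecam1 had higher means with the mimic. The part of these lists in the difference of C1qtnf3 was not tested.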

How the data were processed

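RNA of 6 samples was sequenced as stranded poly(A) libraries. The deposited values are raw counts by gene symbol, 1 list per sample, not normalized by the authors. The submitters' processing notes name bcl2fastq, TopHat2, HTSeq and the build mm9. The annotation and strand setting are not given in the sources used here. Each list closed with 5 tally lines that name no gene and were left out, among them 12.7% to 13.0% of uniquely aligned reads outside genes and 0.65% to 0.67% ambiguous. Reads aligned to more than 1 place were kept apart, so near-identical genes can be undercounted.

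Counts were tested in R 4.3.3 with edgeR 4.0.16 (TMM, filterByExpr with a minimum count of 10, quasi-likelihood test, two-sided, Benjamini-Hochberg over 13117 genes), with the 2 groups and no block. The standard errors given are the absolute log2 fold change divided by the square root of the F statistic of the edgeR test. CPM used TMM-scaled library sizes, and 0.1 CPM was added before log2 for correlations. RPKM used exon lengths of GENCODE M21 on GRCm38, a newer build than that of the files, matched to 22169 of 22609 symbols. Intervals of counting are not given, and the limit for a count of 0 covers counting error only. edgeR, DESeq2 1.42.0 and limma-voom (limma 3.58.1) were tested on simulated data.

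The members and lists were chosen with earlier results of these data known. Named were all members, called genes of the lists or their 3 most abundant, neighbours of members, and the 5 genes most correlated with C1qtnf3. Alternatives were DESeq2, limma-voom, other scalings and filters, a replicate block, other fold cutoffs and leaving out each sample.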

Additional observations from a re-analysis of the deposited data

How the results depend on the processing

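The log2 fold change of C1qtnf3, for which the family was chosen, lay between 1.64 and 1.83 over 13 alternative fits, which is a description of the values that chose it. The members called numbered 2 in the fit reported, 4 without a fold cutoff, 1 at a 2-fold cutoff, and 1 to 2 when 1 sample was left out, C1qtnf7 being the one that lost its call. Over all genes, 6124 passed the adjusted p without a fold cutoff and 280 passed at 2-fold, against 977. Without a fold cutoff, 7 other genes with a C1q domain, 3 receptor genes, 13 assembly genes and 5 AMP-activated kinase genes passed. The other genes with a C1q domain called numbered 1 with DESeq2, 1 with at least 10 counts in every sample, 1 at 2-fold, and 1 to 2 with 1 sample left out. A fit with a replicate block called 925 genes, 921 of them among the 977, with 2 members and 2 other genes with a C1q domain. Samples of equal number did not deviate together (correlations of -0.18, -0.04 and -0.08). With 3 samples per group, these values cannot show whether samples of equal number shared a preparation. In the level order of control samples, with C1qtnf5 placed last at its count of 0, 6 of 7 neighbouring pairs lay apart, and 6 to 7 with 1 control sample left out. C1qtnf5 itself cannot be ordered. C1qtnf2 came before C1qtnf3 without control replicate 3. With 28 to 85 reads per control sample, C1qtnf2, C1qtnf3 and C1qtnf7 had standard errors of 0.11 to 0.20 on the log2 scale.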
